A study of Mus musculus with 6 samples.

Results

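The genes described here are 48 chaperones, cochaperones and chaperonin subunits of the mouse cytosol and mitochondria, chosen by symbol from a fixed list of heat shock proteins, J-domain proteins, HSP60 and CCT chaperonins outside the endoplasmic reticulum. All 48 were found, 1 entry each, among 23282 gene entries, and 45 passed the filter on low counts; Hspa1a, Hspb1 and Hspb8 did not. Their messenger RNA was counted in RAW 264.7, a mouse macrophage cell line that can form osteoclasts, at day 5 of osteoclast differentiation. The tested cells were 3 samples labelled CPN, and 3 samples labelled control were set against them. The series title names the HSP60-class chaperonin as the agent studied, but the labels give neither the source, dose nor timing of what CPN cells received, nor the agent that drove differentiation in either group. Whether the 3 samples of a group were grown separately is not in the labels, and p-values then reflect only sample-to-sample spread, possibly technical. Both groups come from 1 established line.

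Chaperones bind unfolded proteins and help them reach their native form. HSP70 proteins do so in cycles of ATP hydrolysis that J-domain proteins start and nucleotide exchange factors reset, and HSP90 takes over many of their clients. Chaperonins are barrels that enclose a folding protein. HSP60 with its lid HSP10 works in the mitochondrial matrix. The CCT ring of the cytosol folds tubulin and actin, and actin is the material of the osteoclast's actin ring. Under protein-damaging stress, the factor HSF1 binds repeats of the letters GAA and TTC in promoters and raises the inducible members of the family.

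Libraries held 7957228 to 9713938 counts. Among 707 genes with a mean of 6 to 12 counts, CPN 1 had 14.0% zeros and control 3 had 23.8%, against 36.9% to 41.2% in the other libraries, so these 2 stand apart as less sparse. Summed macrophage markers, in CPM (counts scaled to the TMM-adjusted library size), were 2662 to 3010 in CPN and 1928 to 2505 in control. Of 7 tested macrophage markers, 3 were called higher, 0 lower and 4 not called, and 2 had a negative log2 fold change. Summed osteoclast markers were 1079.6 to 1682 CPM in CPN and 3915 to 4079 CPM in control, with 7 of 8 tested markers lower and Mmp9 higher. Of other cell types, granulocyte markers summed to 17.99 to 34.6 CPM in CPN and at most 0.117 CPM in control, nearly all from S100a8, while Elane, Camp and Ngp were at 0 throughout. Stromal markers summed to 17.9 to 22.7 CPM in CPN and at most 7.79 CPM in control, and T cell, B cell and epithelial markers reached at most 0.655 CPM in CPN and 1.75 CPM in control. The part of these cell types in the results below was not tested, and in bulk RNA fewer cells and less RNA per cell cannot be told apart.

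The promoters below are shown because they hold the longest runs of HSF-type repeats found before a RefSeq start site among the members. They belong to the chaperonin pair Hspd1 and Hspe1 and to the J-domain gene Dnajb6, with the inducible HSP70 pair Hspa1a and Hspa1b for comparison. Sequences are from RefSeq (GRCm38.p6), 30 bases each, 5′ to 3′ on the gene's strand, with the run of alternating GAA and TTC units, 2 bases between neighbours, in capitals.
Hspd1, minus strand, chr1:55088053-55088082: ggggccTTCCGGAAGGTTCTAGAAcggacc
Hspe1, plus strand, chr1:55088053-55088082: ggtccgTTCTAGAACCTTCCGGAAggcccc
Dnajb6, plus strand, chr5:29735844-29735873: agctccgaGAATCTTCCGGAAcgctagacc
Hspa1a, minus strand, chr17:34972242-34972271: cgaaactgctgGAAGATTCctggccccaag
Hspa1b, minus strand, chr17:34959324-34959353: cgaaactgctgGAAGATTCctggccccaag

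The capitals of Hspd1 and Hspe1 are the same run of 4 units on chromosome 1, positions 55088059 to 55088076, read on opposite strands, since the 2 genes lie head to head. By GENCODE M21 gene positions this run lies inside Hspd1 and before Hspe1, and the run of Dnajb6 lies inside Dnajb6. The windows of Hspa1a and Hspa1b are letter for letter the same. A promoter was in the RefSeq table for 39 members, as 250 bases before to 50 after each start. Hspa9, Hspa8, Hspa13, Hsp90aa1, Hsp90ab1, Dnajc2, Dnajc5, Cct4 and Hsf1 had none there and were not searched. Searched on both strands, a run of 3 or more units was in the promoters of 4 members (Hspd1, Hspe1, Dnajb6 and Hsph1, the last not wholly before its start), and 0.603% of all 32851 promoters hold one. A run of 4 or more was in 8 of all promoters, among them those of Hspd1 and Hspe1. The shorter pairs GAANNTTC or TTCNNGAA make up the longer runs and read the same on both strands. They were in 18 of the 50 member promoters (36.0%), where 15.1% of all promoters hold one, and these belong to 16 members. Of these 16, Cct6a passed the test described next, 3 (Hspa1a, Hspb1 and Hspb8) had too few counts to test, and the others did not pass. Of the 7 members that passed, 5 were in the RefSeq table, without Hspa9 and Hspa13. Of further motifs, each was in 1 member: TGACGTCA in Trap1 (1.79% of all promoters) and TGATGNAA, on both strands, in Hspa14 (3.97%).

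Most chaperone genes of the cytosol and mitochondria did not pass the test between CPN and control cells, as was so of all tested genes. Of 45 tested members, 6 rose in CPN cells and 1 fell at an edgeR adjusted p of 0.05, or 15.6% in all. That share is close to the 14.0% of all 11092 tested genes that passed, 7.62% higher and 6.39% lower. The members that rose were Hspa2, Hspa13 and Hspa4l of the HSP70 and HSP110 family and Hspa9, Lonp1 and Clpb of the mitochondria. The chaperonin subunit gene Cct6a fell. The median log2 fold change of the members was 0.06, against -0.0079 over all tested genes. For 30 members (66.7%) the 95% interval of the fold change lay within 2-fold in both directions, against 38.6% of all tested genes. All CPN libraries lay above all control libraries for 12 members and below them for 5, where 16.9% and 15.7% of all tested genes were so. Without both CPN 1 and control 3, the less sparse libraries, 1 member (Hspa2) rose and 0 fell; DESeq2 on all libraries gave 7 and 2.

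**Figure D1:**
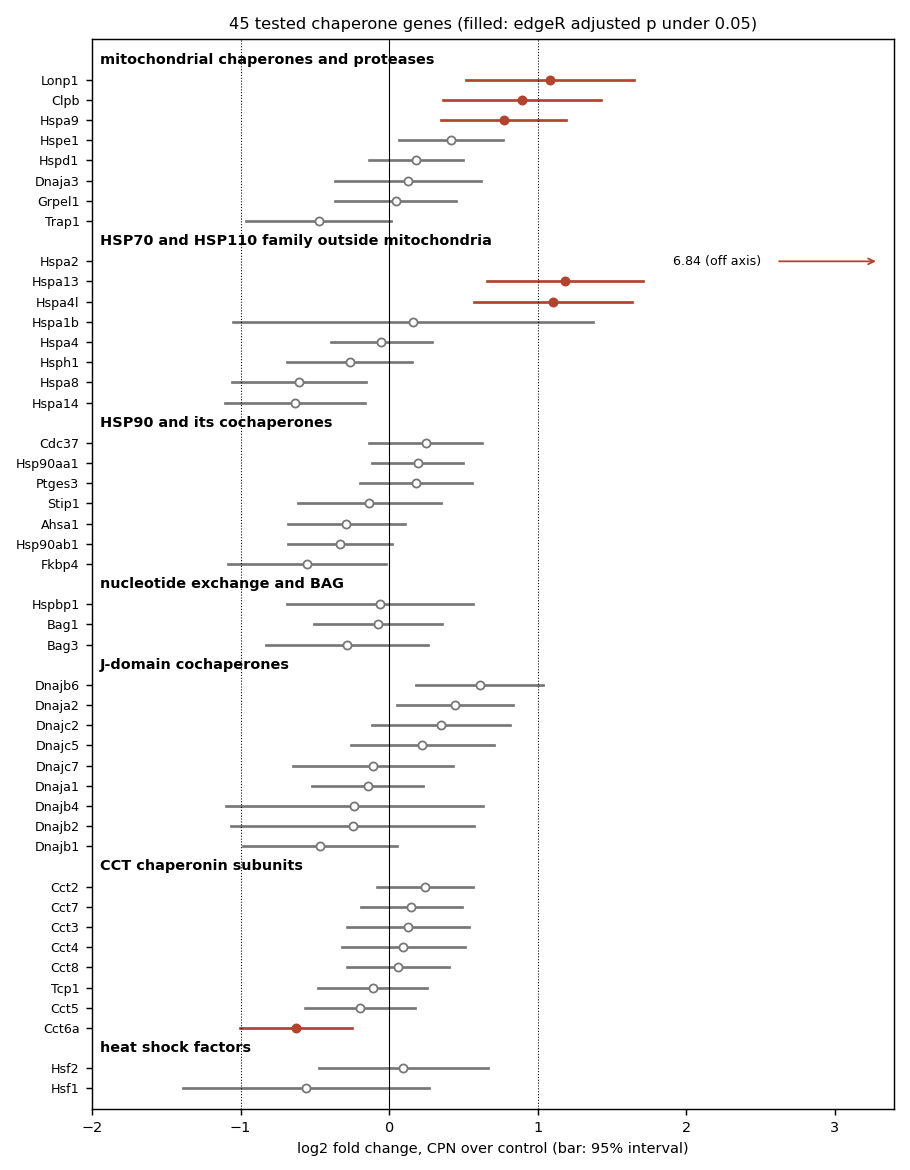
Log2 fold change of CPN over control (x axis) with its 95% interval for the 45 tested members, grouped by role; filled red points passed an edgeR adjusted p of 0.05 and dotted lines mark 2-fold. The 6 genes that rose lie in the 2 upper groups, Hspa2 is off the axis at 6.84, and 7 of 8 CCT intervals stay within the dotted lines.

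In the mitochondrial group, 3 of 8 members rose, 0 fell and 5 did not pass, where 7.62% of all tested genes were called higher and 6.39% lower. A count among so few genes says little by itself. Hspa9, which encodes mortalin, the matrix HSP70 that also pulls proteins in through the import pore (chromosome 18, 34937414 to 34954357), had 1359, 1049.7 and 1142 CPM in CPN 1 to 3 and 638, 901 and 544 CPM in control 1 to 3. The CPN values all lay above the controls, of which control 2 came closest. The fold was 1.70 (log2 ratio of CPN over control 0.77 ± 0.193 SE, edgeR adjusted p = 0.0179). Lonp1, the matrix protease that removes damaged proteins (chromosome 17, 56614297 to 56626887), had 457, 329 and 304 CPM in CPN and 125, 253 and 136 CPM in control. It rose 2.12-fold (log2 1.08 ± 0.261 SE, edgeR adjusted p = 0.0145). Clpb, a disaggregase of the intermembrane space (chromosome 7, 101663633 to 101795506), had 96.4, 88.5 and 72.9 CPM in CPN and 31.9, 56.9 and 50.3 CPM in control. Its rise was 1.86-fold (log2 0.89 ± 0.246 SE, edgeR adjusted p = 0.0285).

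The same libraries led in all 3 genes: CPN 1 was the highest CPN sample and control 2 the highest control sample. Calls of Hspa9 and Lonp1 ended without CPN 1 (edgeR adjusted p = 0.0718 and 0.0749), control 1 (0.0764 and 0.063) or control 3 (0.11 and 0.0816). That of Clpb ended without CPN 1 (edgeR adjusted p = 0.105), CPN 2 (0.0959), control 1 (0.11) or control 3 (0.0766), and with library totals alone (0.0542).

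The chaperonin of the matrix itself did not pass. Hspd1, encoding HSP60 (chromosome 1, 55077835 to 55088243), had 519, 516 and 492 CPM in CPN and 456, 472 and 417 CPM in control. Its 3 CPN values stood above its 3 control values, yet the log2 fold change of 0.18 had a 95% interval of -0.13 to 0.50 (edgeR adjusted p = 0.487). Hspe1, encoding the lid HSP10 (chromosome 1, 55088132 to 55091307), had 241, 249.6 and 280.01 CPM in CPN and 207, 180.4 and 190.5 CPM in control. These groups did not overlap either, and the log2 fold change of 0.42 had an interval of 0.07 to 0.76 (edgeR adjusted p = 0.116). Both intervals lay under a 2-fold rise. By GENCODE M21 gene positions, which differ from the RefSeq start used for the Hspd1 promoter above, the genes share 112 bases at their starts. GENCODE M21 also names 5 pseudogenes of Hspd1 and 6 of Hspe1, so some reads of either may be shared.

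Other matrix members did not pass. Trap1, the mitochondrial HSP90, averaged 67.8 ± 13.4 CPM in CPN and 94.2 ± 19.5 CPM in control (SD, n = 3 each), with a log2 interval of -0.96 to 0.01. Grpel1, the exchange factor of mortalin, had a log2 fold change of 0.04, and its J-domain partner Dnaja3 had 0.13.

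In the HSP70 and HSP110 family outside mitochondria, 3 of 8 tested members rose and 0 fell, again too few genes to weigh against the 7.62% of all tested genes called higher. The widest difference of the whole list was that of Hspa2, an HSP70 best known from the testis, where mouse spermatocytes need it for meiosis (chromosome 12, 76404176 to 76406938). CPN 1 to 3 held 60, 74 and 112 counts of Hspa2, against 0, 2 and 0 counts in control 1 to 3. In CPM these were 7.20, 9.69 and 13.9 in CPN and 0, 0.240 and 0 in control. The ratio of group totals was 139, with an exact 95% counting interval of 38.0 to 1152 (edgeR adjusted p = 0.00117). Both control counts were in control 2, and without that library Hspa2 was at least 32.0-fold higher in CPN, against a floor of 3 counts per control library. The gene passed under all 15 alternatives, with edgeR, DESeq2 or limma-voom adjusted p between 2.88e-07 and 0.033.

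Zeros may carry more than counting error here: among 1386 genes with a mean of 20 to 60 counts, 0.505% to 7.07% of values in a library were 0. That mean spans both groups, so genes off in 1 group, Hspa2 among them, add to these zeros and cannot be told apart from such error. No other measured gene overlaps Hspa2. Its transcript shares no run longer than 32 bases with that of Hspa1b or Hspa1l and none longer than 20 bases with that of Hspa8. The granulocyte marker S100a8 was likewise near 0 in control, with 18.7, 34.6 and 17.9 CPM in CPN and 0, 0 and 0.117 CPM in control. Other granulocyte markers differed from it: S100a9 had 0, 0 and 0.124 CPM in CPN and 0 CPM in each control. Mpo had 0.720, 0 and 0 CPM in CPN and 0 CPM in each control, and Elane, Camp and Ngp were at 0 throughout. The stromal marker Dcn had 11.3, 7.73 and 12.2 CPM in CPN and 0 CPM in each control. Lum had 1.32, 8.25 and 0 CPM in CPN and 0 CPM in each control. Bglap (0, 0 and 2.61 CPM in CPN), Sp7 (0, 1.31 and 0) and Pdgfrb (1.68, 0 and 0) were likewise at 0 in each control. Other stromal markers differed from this: Col1a1 had 0.840, 2.75 and 0 CPM in CPN and 0, 4.43 and 0 CPM in control. Runx2 had 2.76, 2.62 and 3.23 CPM in CPN and 0, 3.11 and 0.701 CPM in control. Col1a2 had 0 CPM in each CPN library and 0, 0.240 and 0 CPM in control. Whether such cells were present, and any part of theirs in the Hspa2 result, was not tested.

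Hspa13, an HSP70-type ATPase known from microsomes (chromosome 16, 75745431 to 75767104), had 57.5, 49.8 and 57.3 CPM in CPN and 21.9, 29.5 and 21.2 CPM in control. That is a 2.27-fold rise (log2 1.18 ± 0.242 SE, edgeR adjusted p = 0.00551), with no overlap, and it passed with each library left out in turn. By its known place, Hspa13 is the member closest to the endoplasmic reticulum, whose chaperones are counted below. Hspa4l, an HSP110-type exchange factor (chromosome 3, 40744495 to 40796103), had 73.1, 91.9 and 56.6 CPM in CPN and 33.7, 28.9 and 40.6 CPM in control. The rise was 2.15-fold (log2 1.10 ± 0.245 SE, edgeR adjusted p = 0.00916), and it did not pass without CPN 2 (edgeR adjusted p = 0.0569). Its close relative Hspa4 averaged 319 ± 18.03 CPM in CPN and 331 ± 33.5 CPM in control (SD, n = 3 each), with a log2 interval of -0.39 to 0.28. The difference between the changes of Hspa4l and Hspa4 was not tested.

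**Figure D2:**
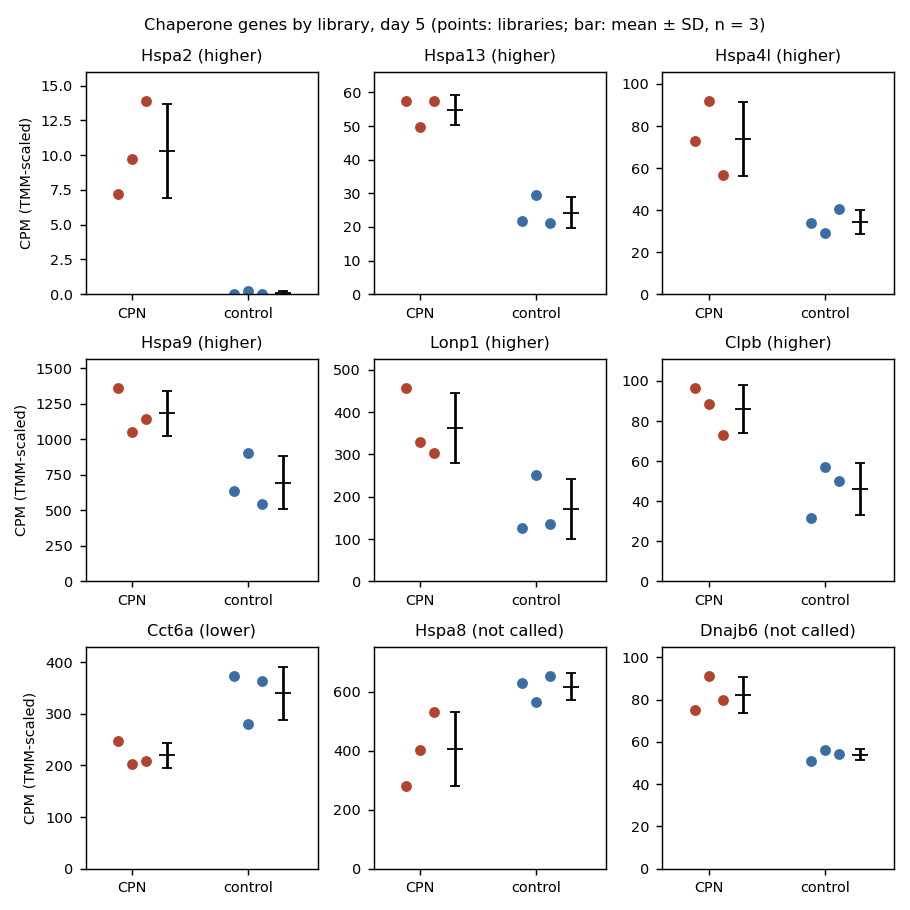
CPM in each library (y axis, from 0) of the 7 genes that passed and of Hspa8 and Dnajb6, with CPN on the left and control on the right of each panel; points are libraries and bars the mean ± SD, n = 3. No panel has overlapping groups, and in Hspa9 and Lonp1 the highest control sits nearest the lowest CPN library.

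Hspa8, the constitutive HSP70 of the cytosol (chromosome 9, 40800984 to 40810087), had 280.1, 404 and 530.4 CPM in CPN and 631, 566 and 655 CPM in control. The CPN values lay below the controls but spread widely, and the gene did not pass (log2 ratio -0.61, 95% interval -1.06 to -0.16, edgeR adjusted p = 0.0725). It fell by DESeq2 (adjusted p = 0.0284), limma-voom (adjusted p = 0.0259), library totals alone and no filter (edgeR adjusted p = 0.0299 and 0.0138), and in edgeR without CPN 3 (adjusted p = 0.0236) or control 2 (adjusted p = 0.0403). Hspa14, an atypical HSP70 that works at the ribosome, had 40.9, 48.9 and 36.8 CPM in CPN and 73.3, 58.7 and 64.3 CPM in control, with no overlap (log2 ratio -0.63, edgeR adjusted p = 0.0744). With library totals alone Hspa14 passed as lower (edgeR adjusted p = 0.0375); under that scaling the median log2 ratio over every tested gene was -0.13.

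The stress-inducible HSP70 genes were at low counts in both groups. Hspa1b had 62, 88 and 45 counts in CPN and 47, 52 and 95 counts in control, with full overlap (log2 ratio 0.16, 95% interval -1.05 to 1.37, edgeR adjusted p = 0.899). Hspa1a had 5, 0 and 11 counts in CPN and 10, 0 and 20 in control, too few to test. Transcripts of the 2 genes are 98.8% identical over 2249 aligned bases and share a run of 638 bases, so their reads may be exchanged there, while the last 300 bases of either share no run over 10 bases with the other. Hsph1, the inducible HSP110, averaged 134 ± 18.5 CPM in CPN and 162 ± 29.1 CPM in control (SD, n = 3 each) and did not pass. A 2-fold change in either direction lay outside the interval of Hsph1 (log2 -0.69 to 0.16) but inside that of Hspa1b.

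Of the J-domain cochaperones, 0 of 9 passed by edgeR, where 14.0% of all 11092 tested genes did. DESeq2 called 1 of the 9, and over all genes 1052 higher and 903 lower. By limma-voom 0 of the 9 passed, and over all genes 936 were higher and 738 lower. A count of 0 among so few genes says little by itself. Dnajb6, which keeps aggregation-prone proteins soluble (chromosome 5, 29735688 to 29818134), had 75.0, 91.4 and 79.8 CPM in CPN and 51.01, 56.1 and 54.5 CPM in control. Its groups stood well apart, with a log2 ratio of 0.61 ± 0.197 SE (edgeR adjusted p = 0.0589), and it was the 1 J-domain gene that rose by DESeq2 (adjusted p = 0.0348). Dnaja2, a general HSP70 partner, had 219.8, 223 and 187 CPM in CPN and 160.1, 127 and 175 CPM in control, again with no overlap (log2 ratio 0.44, edgeR adjusted p = 0.134). Dnajb1, the J-domain partner induced with HSP70 under heat shock, averaged 39.1 ± 6.88 CPM in CPN and 54.1 ± 10.3 CPM in control (SD, n = 3 each; log2 ratio -0.47, edgeR adjusted p = 0.245). The other 6 lay between -0.25 (Dnajb2) and 0.35 (Dnajc2) on the log2 scale.

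Of the exchange factors of the BAG type and Hspbp1, 0 of 3 passed by edgeR, DESeq2 or limma-voom. By edgeR 14.0% of all tested genes passed. Bag1, which links HSP70 to the proteasome, had 74.0, 93.8 and 84.5 CPM in CPN and 96.04, 74.6 and 95.5 CPM in control, with overlap. Bag3, an HSF1 target in selective autophagy, averaged 40.5 ± 9.56 CPM in CPN and 49.3 ± 8.52 CPM in control (SD, n = 3 each). For all 3 genes the 95% interval excluded a 2-fold change either way.

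HSP90 and its cochaperones gave 0 of 7 genes by edgeR, DESeq2 or limma-voom, where 14.0% of all tested genes passed by edgeR. Hsp90ab1, the constitutive HSP90 (chromosome 17, 45567775 to 45573271), had 2396, 2072 and 1605 CPM in CPN and 2352, 2628 and 2661 CPM in control. The groups overlapped, since CPN 1 lay above control 1 (log2 ratio -0.33, 95% interval -0.68 to 0.02, edgeR adjusted p = 0.215). Hsp90aa1, the inducible form, averaged 809 ± 32.4 CPM in CPN and 709 ± 44.7 CPM in control (SD, n = 3 each) without overlap, and did not pass (log2 ratio 0.19, edgeR adjusted p = 0.446). Fkbp4, an immunophilin of steroid receptor complexes, had 185, 226 and 156 CPM in CPN and 362, 174 and 294 CPM in control. Control 2 lay among the CPN values, and without it Fkbp4 fell (log2 ratio -0.78, edgeR adjusted p = 0.008), where the full set gave -0.55 (edgeR adjusted p = 0.171). Ahsa1, which stimulates the HSP90 ATPase, had 80.2, 84.6 and 78.9 CPM in CPN and 107, 96.2 and 95.02 CPM in control, with no overlap (edgeR adjusted p = 0.355). The adaptor Stip1, the kinase loader Cdc37 and the cochaperone Ptges3 lay between -0.13 and 0.25 on the log2 scale.

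The small heat shock proteins were scarcely detected. Hspb1 had 1, 0 and 3 counts in CPN and 0, 0 and 1 in control, and Hspb8 had 3, 0 and 0 counts in CPN and none in control. At these depths 3 counts correspond to 0.294 to 0.393 CPM, so no fold is given.

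CCT subunits are needed in equal number, 1 of each per ring. Of the 8, Cct6a fell and 7 did not pass, so 12.5% were called, where 14.0% of all tested genes were. Cct6a (chromosome 5, 129786998 to 129846371) had 247, 204 and 208 CPM in CPN and 374, 280.1 and 364 CPM in control. The groups did not overlap, and the gene fell by 0.63 on the log2 scale (SE 0.175, 1.54-fold lower, edgeR adjusted p = 0.0303). It overlaps Psph over 452 bases on the opposite strand, a gene with 4008 counts in all against 14566 for Cct6a and a log2 ratio of 1.03 (edgeR adjusted p = 0.183). The call of Cct6a ended without CPN 2, CPN 3, control 1 or control 3 (edgeR adjusted p = 0.129, 0.0981, 0.126 and 0.14).

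The other CCT subunits lay close to their control values. Cct2 had 657, 622 and 716 CPM in CPN and 593, 589 and 510.03 CPM in control, without overlap (log2 ratio 0.24, edgeR adjusted p = 0.353). Tcp1, the subunit that names the complex, had 279.6, 230.4 and 233 CPM in CPN and 305, 241 and 256 CPM in control, with overlap (log2 ratio -0.11, edgeR adjusted p = 0.751). For all 7, from -0.19 in Cct5 to 0.24 in Cct2, the 95% interval excluded a 2-fold change; the upper end was highest for Cct2, at 0.56. Tcp1 overlaps Mrpl18 and Acat3, and Cct7 and Cct8 overlap Pradc1 and Usp16, each on the opposite strand. Whether strand was used in the counting is not given, so reads of shared stretches may be assigned to either gene. In all, 13 members share bases with another measured gene. The partners Snord14c, Snord14d, Snora15, Snora20, Gm6297 and Gm5129 had 0 to 36 counts in all and were not tested. Of the tested partners 0 passed, where 14.0% of all tested genes did.

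**Figure D3:**
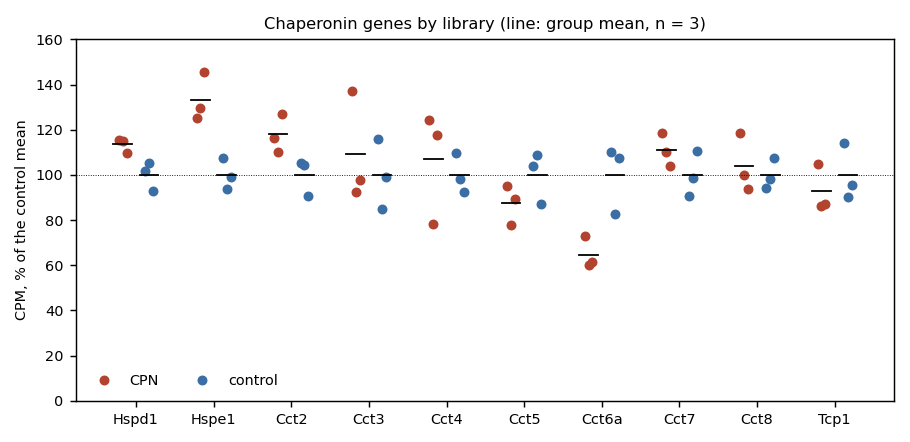
CPM of the 2 HSP60-system genes and the 8 CCT genes in each library, as a percent of the gene's control mean (y axis); CPN points are left of control points and lines are group means, n = 3. Cct6a is the gene whose CPN libraries all lie below every control library, and Hspd1, Hspe1 and Cct2 have CPN libraries all above their controls.

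Neither heat shock factor passed by edgeR, DESeq2 or limma-voom, where 14.0% of all tested genes passed by edgeR. Hsf1 had 24.7, 28.6 and 8.93 CPM in CPN and 31.9, 34.1 and 25.7 CPM in control, overlapping through CPN 2, with a wide interval (log2 ratio -0.56, 95% interval -1.39 to 0.27, edgeR adjusted p = 0.402). CPN 3 was the lowest library. Hsf2, a related factor of development, had 28.7, 29.3 and 36.6 CPM in CPN and 25.1, 29.0 and 34.5 CPM in control (log2 ratio 0.10, edgeR adjusted p = 0.87).

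Other folding genes were counted by list, where 7.62% of all tested genes were called higher and 6.39% lower. Of 27 other cytosolic chaperones and cochaperones tested, 0 rose and 1 fell: Dnajb14, whose J-domain faces the cytosol from the endoplasmic reticulum membrane, averaged 25.7 ± 5.56 CPM in CPN and 97.8 ± 20.9 CPM in control (SD, n = 3 each; edgeR adjusted p = 0.000249). Among 14 genes of prefoldin and of chaperonin and tubulin cofactors, 1 rose, the tubulin-folding cofactor gene Tbcb, 2.64-fold (edgeR adjusted p = 0.0035). Of 20 other genes of mitochondrial protein quality control, 0 rose and 1 fell, the intermembrane space protease gene Htra2, 1.56-fold (edgeR adjusted p = 0.0494). The medians of these lists were -0.04, 0.14 and -0.01 on the log2 scale.

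In the list of endoplasmic reticulum chaperones, 16 of 19 tested genes rose and 0 fell, with a median log2 fold change of 1.78, where 6 of the 45 cytosolic and mitochondrial members rose. Creld2 rose 8.02-fold (edgeR adjusted p = 2.22e-05), Hspa5 5.83-fold (9.73e-06) and Dnajc3 5.43-fold (3.39e-05). The difference between the lists was not tested.

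**Figure D4:**
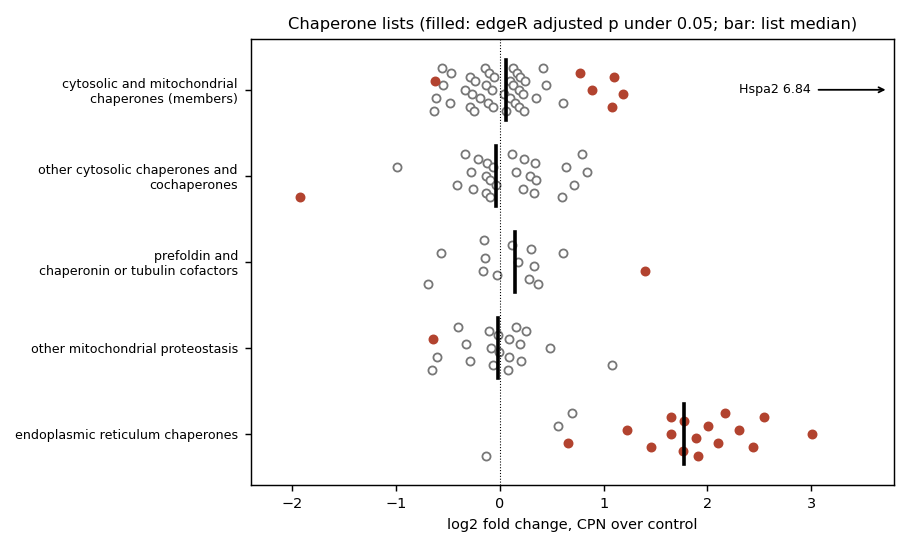
Log2 fold change of CPN over control (x axis) for the tested genes of 5 chaperone lists, 1 point per gene, filled where the edgeR adjusted p was under 0.05, with the list median as a bar. The member list has its median at 0.06 and Hspa2 off the axis at 6.84, and the endoplasmic reticulum list has its median at 1.78.

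Across settings, the 6 called members other than Hspa2, together with Hspa8 and Dnajb6, kept 1 direction each. Hspa13 ranged from 1.06 to 1.37 and Lonp1 from 0.74 to 1.49 on the log2 scale over the full set and 15 alternatives. Cct6a ranged from -0.75 to -0.55 and Hspa8 from -0.85 to -0.36. Hspa13 passed in 15 of 16 settings, Hspa4l in 14, Hspa9 and Lonp1 in 12, Cct6a in 11, Clpb in 10, Hspa8 in 6 and Dnajb6 in 1.

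**Figure D5:**
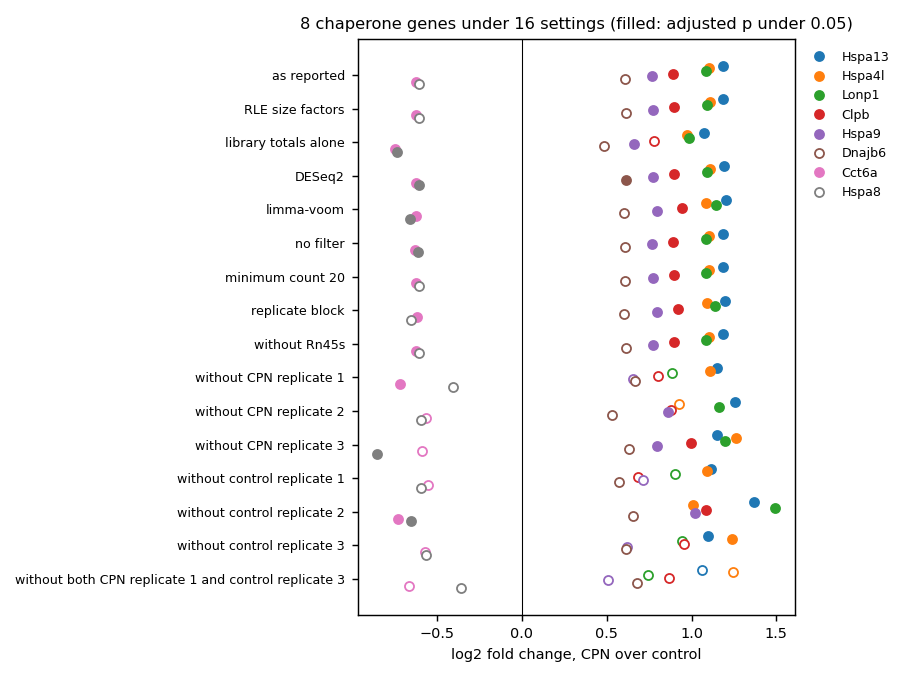
Log2 fold change of CPN over control (x axis) of 8 members under 16 settings (rows), filled where the adjusted p was under 0.05. Points keep their side of 0 in every row, and the open points of Hspa9, Lonp1 and Cct6a are all in rows with libraries left out.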

How the data were processed

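Counts of reads per gene symbol were deposited as 1 table per library for 6 samples of RAW 264.7 cells, made per the labels' protocols from TRIzol RNA with a Lexogen Quant-Seq kit. Per the submitters' processing notes, Bowtie2, bedtools and the mm10 build were used. For annotation, strand and multiple alignments, the sources used here give nothing.

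The test ran on the counts of 11092 genes, using edgeR 4.0.16 (R 4.3.3): TMM scaling, filterByExpr (minimum count 10, minimum total 15), the quasi-likelihood test of CPN against control and Benjamini-Hochberg adjustment over all tested genes at 0.05. Fold changes are CPN over control; SE is the log2 fold change divided by the square root of F, and intervals use the t quantile. Counting intervals and the floor of 3 counts cover counting error only. The members and lists were chosen with earlier results of these data known. Values in all libraries are given for members called by edgeR, DESeq2 or limma-voom, the chaperonin, inducible HSP70 and HSF1 genes, the most abundant of each role and the 3 widest log2 fold changes per direction; other members named with values were added after these were seen. Positions and overlaps are from GENCODE M21. Alternatives used DESeq2 1.42.0, limma 3.58.1 (voom), other scalings and filters, no Rn45s, a replicate block and left-out libraries.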

Additional observations from a re-analysis of the deposited data

How the results depend on the processing

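The count of members higher in CPN was 6 and stayed between 5 and 7 under other scalings, filters and tools; leaving out 1 library gave 3 to 6, and leaving out both CPN 1 and control 3 gave 1. The count of members lower was 1 as reported, 3 with library totals alone, 2 with DESeq2, limma-voom or no filter, 0 to 3 with 1 library left out, and 0 without both. Over all genes, 845 were higher and 709 lower, with 525 to 1131 and 359 to 823 when 1 library was left out, and 273 and 173 without both. The cause of these moves was not tested. Among the members that the naming rule gives in all libraries, those that changed sign were the uncalled Hspa1b (log2 ratio -0.16 to 0.59 with 1 library left out, 0.66 without both), Bag1 (-0.17 to 0.0054, and 0.062 without both) and Hsf2 (-0.023 to 0.22, 0.29 without both and -0.027 with library totals alone). Same-numbered samples had deviations correlated at -0.074, 0.014 and 0.039, so the numbers give no pairing; with the replicate block 6 members were higher and 1 lower, and 748 and 578 of all genes.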
